A study of Danio rerio with 6 samples.

Results

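Muscle microRNAs were followed in small RNA libraries of zebrafish primordial germ cells, the embryonic cells that later form eggs and sperm. They were found by name, as the rows of the microRNA table called miR-1, miR-133 with a letter, miR-206, miR-208 with a letter or miR-499. The search found 3 of the 134 mature microRNAs in the table, miR-1, miR-206-3p and miR-499-5p. No row was named miR-133 or miR-208, and these were not analysed here. The cells came from the AB strain and had been picked by green fluorescence at 3 stages with 2 libraries each. The first was 6 hours post fertilization (hpf), known as the shield stage, the next the 3-somite stage, reached at 11 hpf, and the last the prim-5 stage, reached at 24 hpf. The labels name neither the fluorescent reporter nor any genotype or treatment, and nothing in them tells whether 2 libraries of 1 stage are 2 batches of embryos. P-values therefore cover only the spread among these libraries, and that spread may be technical. The labelled cell type could not be checked against germ cell mRNAs, which small RNA libraries do not measure, and no row was named for the gonad microRNA miR-202.

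miR-1 and miR-206 are made in skeletal muscle of vertebrates, and miR-1 also in the heart, where they repress mRNAs of non-muscle genes as myoblasts differentiate. In the genome their genes mostly lie beside those of miR-133, with which these are transcribed. miR-499 is encoded in an intron of a myosin heavy chain gene and is typical of slow skeletal muscle and heart. Primordial germ cells arise apart from the muscle lineage and migrate through the embryo to the future gonad while the somites beside their path form muscle. The sequences of the 3 members are printed because miR-1 and miR-206-3p share a seed, the stretch (bases 2 to 8, in capitals) that pairs with target mRNAs, and because the closeness of their sequences bears on how reads are told apart. They are those of the deposited table, written as DNA from 5′ to 3′.
miR-1: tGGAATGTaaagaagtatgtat
miR-206-3p: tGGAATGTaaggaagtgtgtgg
miR-499-5p: tTAAGACTtgcagtgatgttta

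All 3 were 22 nucleotides long. miR-1 and miR-206-3p were identical at 18 of 22 positions and differed by A11G, A17G, A21G and T22G, where positions count from 1 at the 5′ end, the first base is that of miR-1 and the last that of miR-206-3p. No other microRNA of the table had their seed, and none had the seed of miR-499-5p. The nearest sequence outside the 3 was at an edit distance of 9 from miR-1 (let-7f), 8 from miR-206-3p (miR-122) and 9 from miR-499-5p (miR-122). How the authors counted reads that match several microRNAs is not stated in the labels or the table. In RefSeq's gene table for the assembly GRCz12tu, used only for neighbourhood, mir206-1 and mir206-2 had mir133b and mir133c as their nearest microRNA genes. These lay 1186 and 4173 bp away. The nearest microRNA genes of mir1-1 and mir1-2 were mir133a-2 and mir133a-1, at 38605 and 2098 bp, and mir499a overlapped the myosin gene myh7ba.

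The libraries held 35718 and 63849 microRNA reads at 6 hpf, 45309 and 48199 at 11 hpf, and 66864 and 78973 at 24 hpf. Levels are given as CPM, the reads per 1000000 microRNA reads of the same library, which is a smaller total than the one behind the authors' RPM, with exact (Clopper-Pearson) 95% intervals. Taking 3 reads as the floor, a count of 0 allowed a level of up to 84.0 and 47.0 CPM at 6 hpf, 66.2 and 62.2 at 11 hpf, and 44.9 and 38.0 at 24 hpf. Reads were amplified by PCR and are not independent molecules, so intervals, floors and "at least" ratios cover counting error at most. The floor of 3 reads lies below the upper limit of the exact interval for 0 reads, which was 55.2 CPM in 24 hpf replicate 1. It is thus the less cautious bound. "At least" ratios take the reads of the higher stage as counted, without their counting error. In these pooled cells, fewer cells that carry a microRNA and less of it per cell cannot be told apart.

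miR-1 was the only one of the 3 with reads in every library, also at 6 hpf. It had 10 and 10 reads at 6 hpf, 20 and 17 at 11 hpf, and 8 and 27 at 24 hpf. Its level was 280.0 and 157 CPM at 6 hpf, 441 and 353 CPM at 11 hpf, and 119.6 and 342 CPM at 24 hpf. The 11 hpf libraries were the highest, and the 24 hpf libraries lay on either side of both 6 hpf libraries. Stage means were 218 ± 87.2 CPM at 6 hpf, 397 ± 62.7 at 11 hpf and 231 ± 157 at 24 hpf (SD, n = 2 each). The means at 24 and 6 hpf thus differed by less than the spread between libraries. In order of abundance miR-1 ranked between 40 and 45 of the 134 microRNAs in the 4 libraries of 6 and 11 hpf, and stood at 85 and 59 in those of 24 hpf. More of the 134 had reads at 24 hpf, 100 and 95, against 71 and 73 at 6 hpf and 80 and 82 at 11 hpf. Ranks of different stages are thus not directly comparable, and a lower rank alone is no fall in level.

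miR-206-3p was close to absent in the earlier libraries and present in both 24 hpf libraries. It had 0 and 0 reads at 6 hpf, 1 and 0 at 11 hpf, and 51 and 50 at 24 hpf. The 24 hpf levels were 763 CPM (95% interval 568 to 1003) and 633 CPM (470 to 835), and the single read at 11 hpf corresponded to 22.1 CPM. Both 24 hpf libraries lay above all 4 earlier ones, and the counting intervals did not overlap. Of the 69 microRNAs tested below, 47.8% had both 24 hpf libraries above those of 6 hpf, and 34.8% above those of 11 hpf. The share above all 4 was not counted. Pooled over the libraries of a stage, the level at 24 hpf was at least 23.0-fold higher than at 6 hpf, counting the stage without reads at 3 reads over the stage. This bound was 14.7 without 6 hpf replicate 1 and 8.25 without 6 hpf replicate 2, where the same 3 reads stand for a smaller depth, and 7.83 when reads of the miR-430 family were left out of the totals. Against the 1 read at 11 hpf, which was in replicate 1, the ratio was 64.8 (95% counting interval 11.4 to 2583). It was 31.4 without 11 hpf replicate 2 and 36.9 outside the miR-430 family, and without 11 hpf replicate 1 no read was left at 11 hpf.

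miR-499-5p was read in a single library. It had 0 reads in both libraries of 6 hpf, in both of 11 hpf and in 24 hpf replicate 1, and 22 in 24 hpf replicate 2. The level there was 279 CPM (95% interval 175 to 422), while the 0 in 24 hpf replicate 1 allowed up to 44.9 CPM. The 24 hpf libraries therefore differed by more than the counting error of reads, which are PCR copies and not independent molecules. Whether they differed by more than the counting error of molecules cannot be told. The stage mean of 139 ± 197 CPM (SD, n = 2) rests on 1 library. Among all 134 microRNAs, 7 had 0 reads in 24 hpf replicate 1 and at least 10 in replicate 2, miR-499-5p included, and 16 had the reverse. At a cutoff of 20 reads, closer to its 22, 16 had 0 in either 24 hpf library and at least 20 in the other, miR-499-5p again included. A 0 beside a count of this size was thus not particular to miR-499-5p.

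**Figure D1:**
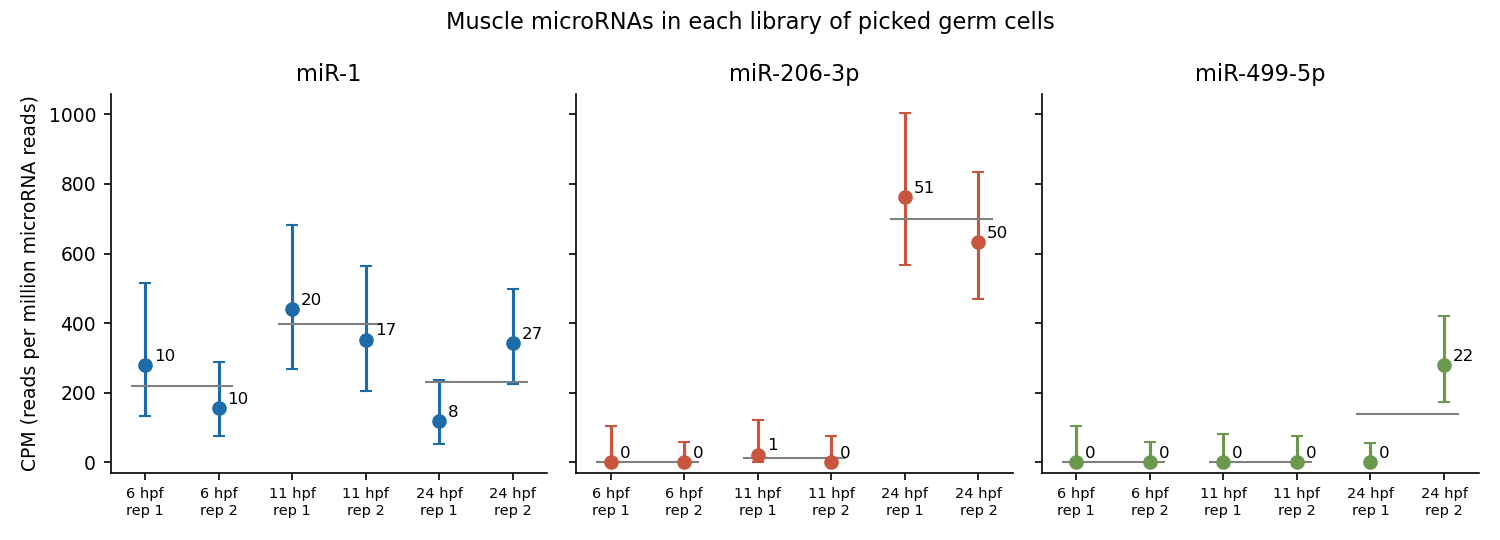
Levels of miR-1, miR-206-3p and miR-499-5p in CPM (vertical axis) in each of the 6 libraries (horizontal axis), with points for libraries, bars for exact 95% intervals, grey lines for stage means and numbers for reads. miR-1 lies between 119.6 and 441 in all libraries, miR-206-3p reaches 763 and 633 at 24 hpf only, and miR-499-5p has reads in 24 hpf replicate 2 only.

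In order of level, miR-1 was the highest of the 3 at 6 and at 11 hpf, and miR-206-3p the highest at 24 hpf. At 24 hpf the mean of miR-206-3p, 698 ± 91.7 CPM, exceeded that of miR-1, 231 ± 157 CPM, by more than the spread, while miR-1 and miR-499-5p did not differ beyond theirs. Levels of different microRNAs in a library also depend on how well each is ligated and amplified, which was not measured. The mixture of the 24 hpf libraries is given by library, and a difference between them was not tested. Of their reads for miR-206-3p and miR-1 together, miR-206-3p made up 86.4% in replicate 1 (51 of 59; exact 95% interval 75.0 to 94.0) and 64.9% in replicate 2 (50 of 77; 53.2 to 75.5). These intervals overlapped. miR-206-3p was at similar counts in both libraries, and miR-1 was at 8 and 27 reads. In the earlier libraries miR-206-3p made up 0 of 10 and 0 of 10 of these reads at 6 hpf, and 1 of 21 and 0 of 17 at 11 hpf.

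Stages were compared by edgeR's quasi-likelihood test with TMM scaling, in 1 fit over all 6 libraries. The filter on low counts kept 69 of the 134 microRNAs, among them miR-1 and miR-206-3p, while miR-499-5p was not tested. miR-206-3p passed this filter only through its 24 hpf libraries, so its being tested was not independent of its level there. Between 24 and 6 hpf, neither tested member passed an adjusted p of 0.05 (Benjamini-Hochberg over the 69), where 17.4% of the 69 did. miR-206-3p stood 7.97 higher on a log2 scale (SE of 1.64, edgeR adjusted p = 0.0614), a fitted value that depends on how the 0 at 6 hpf is treated and is no bound. It was higher in 2 of 2 libraries. Such a lack of overlap, with 24 hpf on top, was seen for 47.8% of the tested microRNAs, others tested only through their 24 hpf libraries included. With 11 hpf replicate 1 left out its adjusted p was 0.0405, with 11 hpf replicate 2 left out 0.0325, and over all alternative settings it lay between 0.0325 and 0.279. It passed in 5 of 14 settings, and in 1 of the 14, DESeq2, no adjusted p was given. miR-1 differed by -1.06 (SE 0.56, edgeR adjusted p = 0.235), with overlapping libraries. Scaled by library size alone its difference was 0.10, and scaled by the totals behind the authors' RPM it was 0.14.

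Between 24 and 11 hpf no tested microRNA passed edgeR's test, so the share called was 0%, and 14 of 69 had an unadjusted p under 0.05 (DESeq2 called 3 and edgeR with RLE size factors 8, no muscle microRNA among them). miR-206-3p differed by 5.37 (SE 1.25, edgeR adjusted p = 0.107) and was among the 8 highest of the 69 differences. This fitted value and its rank rest on the 1 read at 11 hpf. miR-16c-5p, miR-210-5p and miR-182-5p, which ranked above it, had 0 reads at 11 hpf, so their fitted values depend on how the 0 is treated. The difference of miR-206-3p was 8.03 without 11 hpf replicate 1 and 4.64 without 11 hpf replicate 2. Its adjusted p lay between 0.0873 and 0.548 over the 14 alternative settings. Its 24 hpf libraries were both above those of 11 hpf, as they were for 34.8% of the tested microRNAs. miR-1 differed by -1.31 (SE 0.56, edgeR adjusted p = 0.281), with 119.6 and 342 CPM at 24 hpf against 441 and 353 at 11 hpf. Its libraries did not overlap, but 342 and 353 CPM are closer than their counting intervals. Such a lack of overlap, with 24 hpf below, was seen for 7.25% of the tested microRNAs. Its difference was below 0 in all 14 alternative settings, from -1.92 to -0.63, and passed in none of them.

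Between 11 and 6 hpf neither tested member passed, where 5.8% of the 69 did. miR-1 differed by 0.25 (SE 0.56, edgeR adjusted p = 0.851). Its 11 hpf libraries were both above those of 6 hpf, as in 36.2% of the tested microRNAs. miR-206-3p differed by 2.60 (SE 1.76, edgeR adjusted p = 0.684), a difference that rests on 1 read at 11 hpf. The exact two-sided permutation test of each member's share gave p = 0.333 where the libraries of 2 stages did not overlap, the smallest p that 2 against 2 libraries allow, and p = 1 elsewhere. A p that misses the threshold does not show that the stages had the same level.

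**Figure D2:**
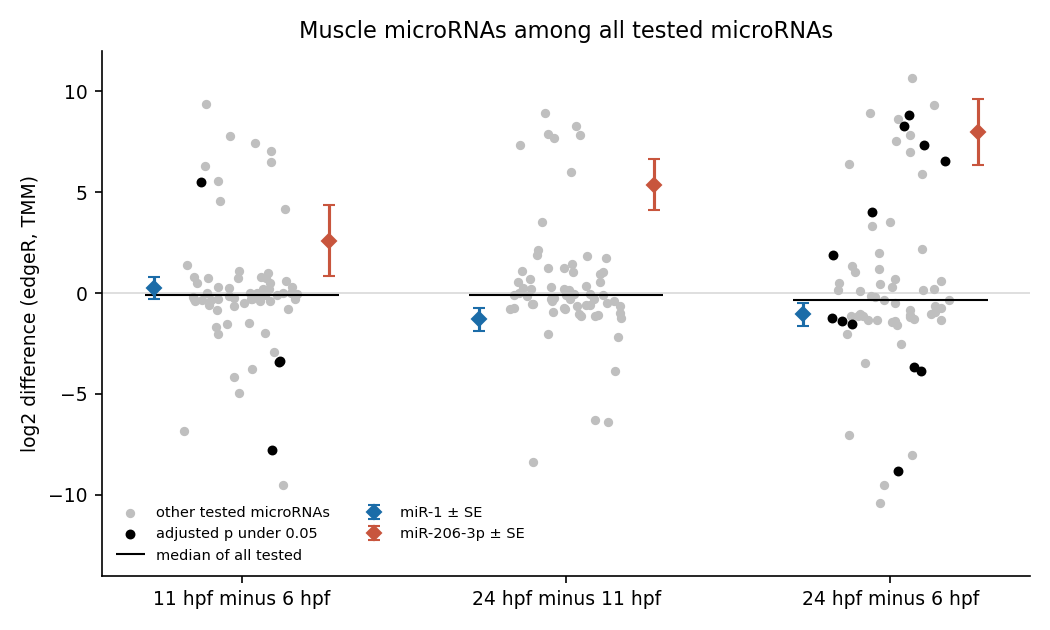
Log2 differences (vertical axis, edgeR with TMM scaling) between stages for the 69 tested microRNAs in the 3 comparisons (horizontal axis), with black points for those at an adjusted p under 0.05, lines for the median, and diamonds with SE bars for miR-1 and miR-206-3p. miR-206-3p stands at 5.37 and 7.97 in the comparisons with 24 hpf, and miR-1 at -1.31 and -1.06, none passing. The SE bars of miR-206-3p in the comparisons with 6 hpf, where it had 0 reads, are approximate.

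The scaling moved the distribution of all differences. Between 24 and 6 hpf the median of the 69 was -0.36 with TMM, 0.18 with RLE size factors, 0.74 with plain library size and 0.88 with the totals behind the authors' RPM. With this median taken off, miR-1 stood at -0.70, -0.70, -0.64 and -0.74 under these 4 scalings. With it taken off, miR-206-3p stood at 8.34, 7.98, 7.57 and 7.59. Under these 4 scalings the sign of the uncorrected difference of miR-1 turned. A change of scaling moves all differences by nearly the same amount. Values with the median taken off therefore stay nearly the same by construction, and do not show that the difference of miR-1 is stable. With miR-430 removed and 58 microRNAs tested, miR-1 stood at -1.09 and miR-206-3p at 7.62 relative to the median of 0.33.

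The miR-430 family degrades maternal mRNAs after the zygotic genome is switched on. It supplied most microRNA reads in each library. Reads outside this family accounted for 12.4% and 9.41% of them at 6 hpf, 19.8% and 15.4% at 11 hpf, and 26.3% and 34.6% at 24 hpf. As a share of these remaining reads, miR-1 was at 0.226% and 0.166% at 6 hpf, 0.223% and 0.230% at 11 hpf, and 0.0454% and 0.0989% at 24 hpf. On this scale both 24 hpf libraries lay below all 4 earlier ones, as they did for 25.4% of the 63 tested microRNAs outside the family. miR-26a-5p alone supplied 14.1% and 14.8% of these remaining reads at 6 hpf, 24.1% and 24.9% at 11 hpf, and 38.9% and 43.2% at 24 hpf, and its part in the lower shares of miR-1 was not tested. The pooled ratio of miR-1 at 24 hpf to 6 hpf was 0.407 (95% counting interval 0.228 to 0.744) on this scale and 1.19 (0.671 to 2.18) over all microRNA reads. The ratio over all microRNA reads was 0.596 without 24 hpf replicate 2 and 0.857 without 6 hpf replicate 2, so its direction rests on single libraries. As a share of the remaining reads, miR-206-3p was at 0.290% and 0.183% in the 24 hpf libraries, against 0.0111% and 0% at 11 hpf. In the authors' deposited RPM, miR-206-3p was at 4.35 and 2.36 at 24 hpf. miR-1 was at 0.954 and 0.825 RPM at 6 hpf, 1.40 and 1.88 RPM at 11 hpf, and 0.683 and 1.27 RPM at 24 hpf.

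Summed over the 3 members, muscle microRNA reads numbered 10 and 10 at 6 hpf, 21 and 17 at 11 hpf, and 59 and 99 at 24 hpf. Their share of all microRNA reads was 0.0280% and 0.0157% at 6 hpf, 0.0463% and 0.0353% at 11 hpf, and 0.0882% and 0.125% at 24 hpf. Both 11 hpf libraries lay above those of 6 hpf, as for 36.2% of the tested microRNAs. Both 24 hpf libraries lay above those of 11 hpf, as for 34.8% of them. The reads of the 6 hpf libraries were all from miR-1. The pooled ratio of 24 to 6 hpf was 5.39 (95% counting interval 3.38 to 9.07). Of reads outside the miR-430 family, the sum made up 0.226% and 0.166% at 6 hpf, 0.234% and 0.230% at 11 hpf, and 0.335% and 0.363% at 24 hpf. On that scale the ratio of 24 to 6 hpf was 1.84 (1.15 to 3.09). The sum is a description with no p, since the members were chosen with results of these data known.

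**Figure D3:**
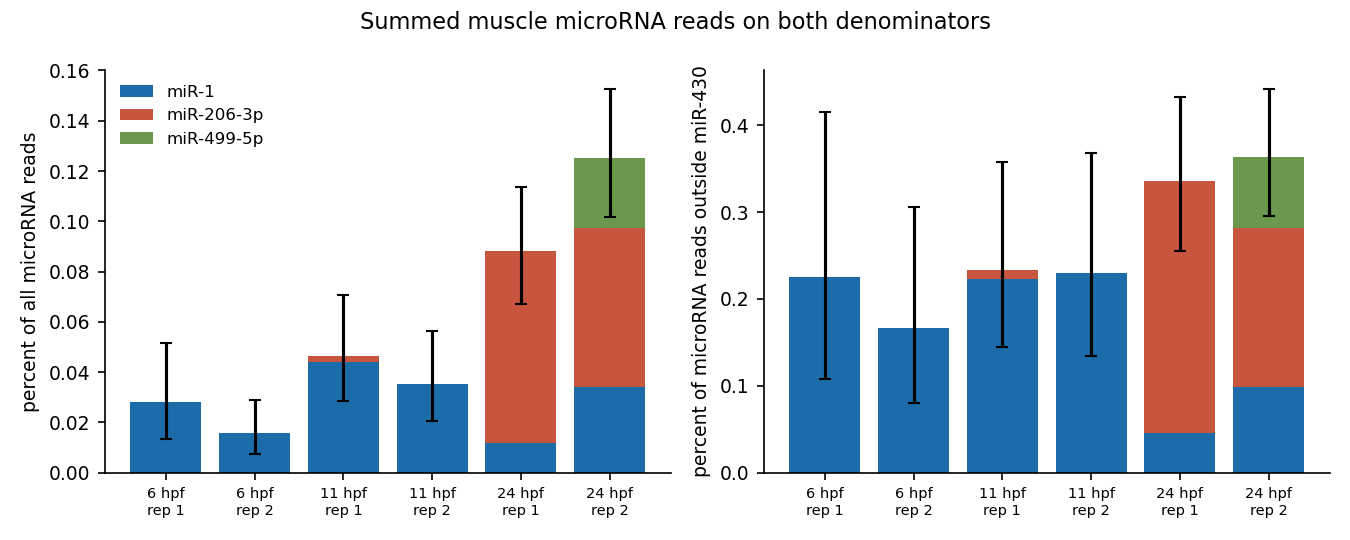
Stacked shares of miR-1, miR-206-3p and miR-499-5p in each library (horizontal axis) as a percent of all microRNA reads (left) and of microRNA reads outside the miR-430 family (right), with exact 95% intervals of the sum. The sum reaches 0.0882% and 0.125% at 24 hpf on the left and 0.335% and 0.363% on the right, and miR-1 supplies all of it at 6 hpf.

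microRNAs typical of other cell types were read in the same libraries, and their part in the muscle values was not tested. The sensory list (miR-96, miR-182 and miR-183, a cluster of sensory organs) also had most reads at 24 hpf, with 1 and 2 reads at 6 hpf, 43 and 7 at 11 hpf, and 175 and 323 at 24 hpf. Its levels there were 2617 and 4090 CPM, above the 882 and 1254 CPM of the summed muscle members. Its leading members were miR-183-5p, with 100 and 240 reads at 24 hpf, and miR-182-5p, with 49 and 82. The neural list had 6 microRNAs in the table and 20 and 2 reads at 6 hpf, 5 and 22 at 11 hpf, and 82 and 45 at 24 hpf. Its levels were 559.9 and 31.3 CPM at 6 hpf, 110.4 and 456 CPM at 11 hpf, and 1226 and 569.8 CPM at 24 hpf, so that 24 hpf replicate 2 and 6 hpf replicate 1 were nearly equal. Its leading members were miR-9-4-3p, with 0 and 42 reads at 24 hpf, and miR-128-3p, with 24 and 1. miR-128-3-5p, named after its values were seen, supplied 15 of the 20 reads in 6 hpf replicate 1. It also supplied 16 of the 22 in 11 hpf replicate 2, and had 0 in each other library. The higher early levels of the list thus rest mostly on this microRNA.

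The mesenchyme and smooth muscle list had 7 members, each with reads in both 24 hpf libraries, and was the most abundant of the lists of other cell types. It held 7923 and 5873 CPM in the 6 hpf libraries, 11433 and 5996 in those of 11 hpf, and 7807 and 9940 in those of 24 hpf, with overlap between all stages. Of reads outside the miR-430 family it made up 6.39% and 6.24% at 6 hpf, 5.77% and 3.90% at 11 hpf. At 24 hpf it made up 2.97% and 2.88% of them, so that on this scale no stages overlapped. Both 24 hpf libraries lay below all 4 earlier ones for 25.4% of the 63 tested microRNAs outside that family. Its leading members were miR-143, typical of smooth muscle, and miR-199-5p, typical of mesenchyme, with 218 and 366 and with 169 and 178 reads at 24 hpf. The endoderm and pancreas list held 373 to 1228 CPM over the 6 libraries and the endothelium list 145.2 to 883, each with overlap between stages. Of reads outside the miR-430 family, the endoderm list made up 0.542% and 0.533% at 6 hpf and 0.199% and 0.355% at 24 hpf. The endothelium list made up 0.384% and 0.449% at 6 hpf and 0.0852% and 0.220% at 24 hpf. On that scale both were lower at 24 than at 6 hpf without overlap, and overlapped 11 hpf. The share of tested microRNAs lower at 24 than at 6 hpf on that scale was not counted. It includes the 25.4% that lay below all 4 earlier libraries. The epithelium list held 504 and 924 CPM at 6 hpf, 265 and 166 at 11 hpf, and 284 and 228 at 24 hpf, so that both 6 hpf libraries lay above all later ones. A different member led it in each 6 hpf library, as miR-200a-3p had 15 and 3 reads there and miR-200b-3p 3 and 56. How many of all tested microRNAs had such an order was not counted. The endoderm list was highest in 24 hpf replicate 2, where miR-375, a pancreatic islet microRNA, had 50 reads and none in replicate 1. miR-7a, its other leading member, had 35 and 47 reads at 24 hpf. The endothelium list was led by miR-126a-3p, with 14 and 58 reads at 24 hpf, and miR-126a-5p, with 1 and 1. The epithelium list was led by miR-200b-3p and miR-200a-3p, with 19 and 8 and with 0 and 9 reads at 24 hpf. The liver microRNA miR-122 had 15 reads in 6 hpf replicate 1 and 0 in each other library, and miR-204-5p of the retina and lens had 2 to 5 in each library. No row was named for the blood list (miR-142, miR-144, miR-223 and miR-451).

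**Figure D4:**
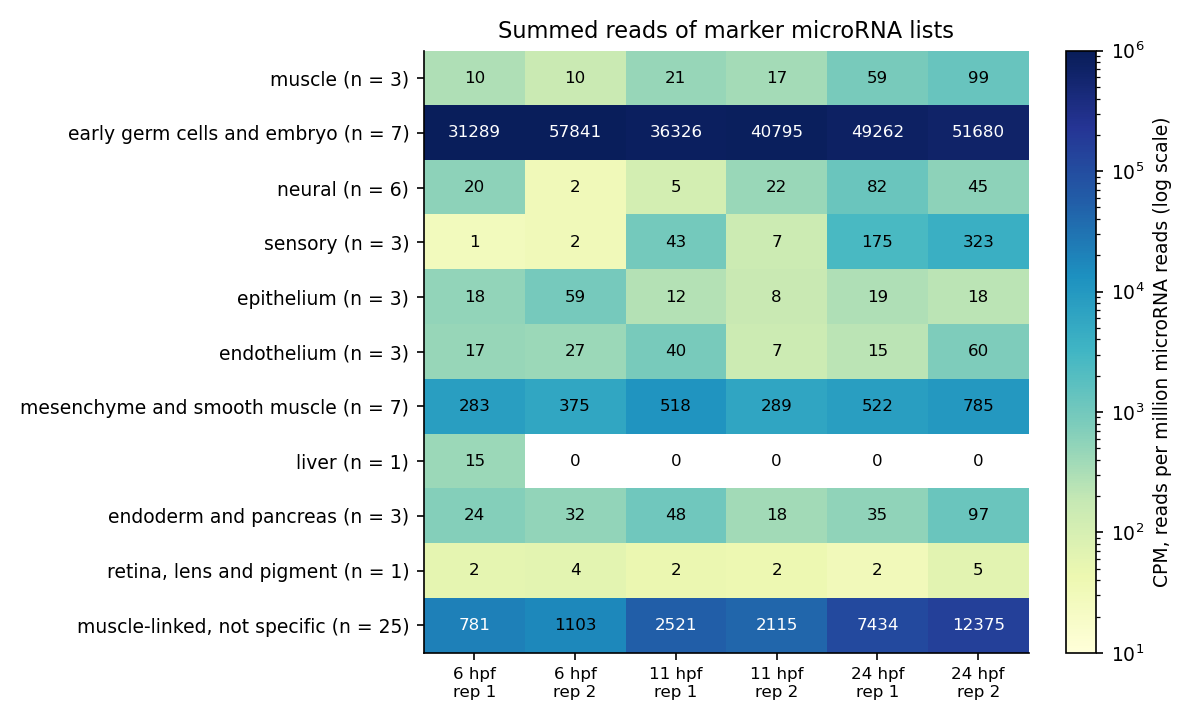
Summed reads (numbers) and CPM (colour, log scale) of each marker list (vertical axis, with the number of its microRNAs in the table) in each library (horizontal axis). The muscle list has 59 and 99 reads at 24 hpf and the sensory list 175 and 323, while the mesenchyme list has 283 or more reads in every library.

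In the edgeR fit between 24 and 6 hpf, 17.4% of the 69 tested microRNAs passed in either direction, 6 higher and 6 lower at 24 hpf. In the sensory list 1 of 2 tested members rose, miR-182-5p, with 49 and 82 reads against 0 and 0 (edgeR adjusted p = 0.045). In the mesenchyme list 1 of 6 tested members rose between these stages, miR-140-3p, a cartilage microRNA with 96 and 134 reads at 24 hpf against 3 and 1 at 6 hpf (edgeR adjusted p = 0.045), named here after its values were seen. In the same comparison 0 of 2 tested muscle members, 0 of 1 neural, 0 of 1 epithelium, 0 of 1 endothelium and 0 of 1 endoderm members passed. Like miR-206-3p, miR-182-5p and miR-140-3p were kept by the filter on low counts only through their 24 hpf libraries. Their rise at 24 hpf was thus not independent of their being tested. The early embryo list, the miR-430 family, had 2 of 6 tested members that fell between 24 and 6 hpf, the 5p arms miR-430i-5p and miR-430a-5p. None of these lists had a member past the test between 24 and 11 hpf, where 0% of the 69 passed. Between 11 and 6 hpf, where 5.8% passed, only the same 5p arms of miR-430 did so among these lists.

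microRNAs that act in muscle development but are not specific to muscle were a further list (miR-24, miR-26, miR-27, miR-29, miR-30, miR-155, miR-181, miR-214, miR-221, miR-222 and miR-486). It had 25 microRNAs in the table, of which 10 were tested. Between 24 and 6 hpf 1 of the 10 rose, miR-26a-5p, which in mouse myoblasts represses Ezh2, and none fell. Of all 69, 17.4% passed in either direction, 6 of them higher and 6 lower at 24 hpf. The median log2 difference of the 10 was 0.26, beside -0.36 for the 69. miR-26a-5p had 6852 and 11787 reads at 24 hpf against 624 and 892 at 6 hpf, a difference of 1.87 (edgeR adjusted p = 0.00472). miR-30e-3p and miR-30b, next in reads, had differences of -1.05 and 0.48 that did not pass (edgeR adjusted p = 0.424 and 0.624). The miR-30 family targets Hedgehog signalling in zebrafish muscle precursors. None of the 10 passed between 24 and 11 hpf or between 11 and 6 hpf.

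To find microRNAs with a similar course, profiles of log2(CPM + 50), centred on their own mean over the 6 libraries, were compared by their root mean square difference, over the 109 other microRNAs with at least 10 reads in all. miR-1 was closest to miR-99, let-7i and let-7c-5p, at differences of 0.23, 0.27 and 0.30, where the median over the 109 was 1.30. These 3 were read in every library, between 115 and 404 times, and like miR-1 had their highest level in 11 hpf replicate 1. Each has near-identical family members in the table, so the division of reads among those names is uncertain. miR-206-3p was closest to miR-16c-5p, miR-210-5p and miR-182-5p, at 0.19, 0.33 and 0.35, against a median of 1.64. All 3 had 0 reads at 6 and 11 hpf, and miR-16c-5p had 48 and 41 at 24 hpf, miR-210-5p 26 and 42. miR-499-5p was closest to miR-9-4-3p, miR-221-3p and miR-375, at 0.31, 0.32 and 0.40, against a median of 1.44. These had 42, 41 and 50 reads in 24 hpf replicate 2, and 0, 2 and 0 in replicate 1. With 6 libraries that also share depth and composition, this likeness is a description only.

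**Figure D5:**
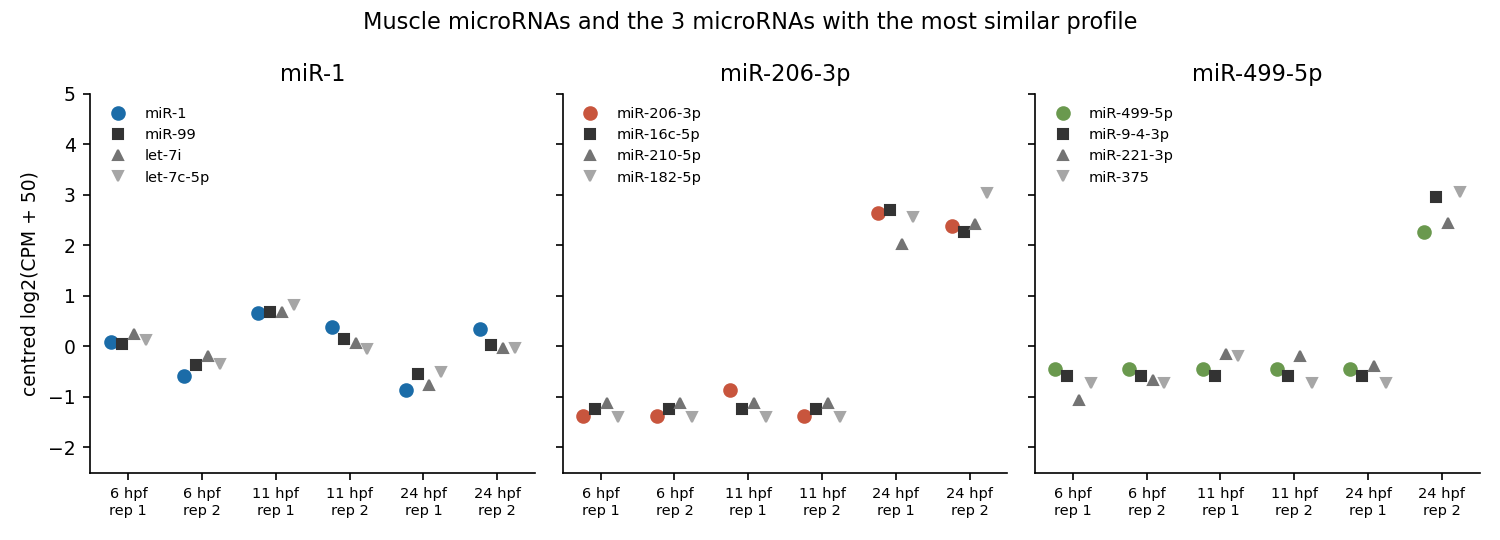
Centred log2(CPM + 50) (vertical axis) of each muscle microRNA (coloured circles) and of the 3 microRNAs with the smallest root mean square difference from it (grey marks) in each library (horizontal axis). The neighbours of miR-206-3p are high in both 24 hpf libraries, those of miR-499-5p in 24 hpf replicate 2, and those of miR-1 were read in every library.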

How the data were processed

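Small RNA libraries of picked primordial germ cells were made with a microscale method, per the labels' protocols. The submitters' processing notes name Bowtie 1.0.0-5 and the genome build danRer11. How reads were assigned and which microRNA annotation was used is not stated there. The deposited table gives whole-number counts of reads per mature microRNA, which were not normalised as far as the file shows, and the authors' RPM. RPM was the count divided by 1 total per library, between 9019179 and 21230244, and what that total counts is not given. All columns were assigned to libraries by the titles, and 0 columns came from another series.

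The counts were fitted in edgeR 4.0.16 (R 4.3.3) with filterByExpr at a minimum count of 10, TMM scaling and stage as the only term. A difference divided by the square root of its F value was taken as the SE. Where a stage had 0 reads this SE is approximate, since the difference depends on how the 0 is treated. For miR-206-3p between 11 and 6 hpf the SE was 1.76, and 1.89 in the robust fit. The unadjusted p of edgeR's quasi-likelihood test was 0.317 in both, so SE and p need not match there. The edgeR fit of 24 against 6 hpf was tested on simulated data, in 50 runs with 20 of 69 microRNAs changed. It recovered 17.8% of 4-fold and 49.6% of 16-fold changes, and 5.34% of its calls were false. Each microRNA was drawn around its mean over the 6 libraries, with the spread estimated from these data. The filter on low counts was not reapplied. The settings did not include a microRNA absent at 6 hpf, as miR-206-3p was. Under these settings many changes of this size would not pass. Intervals and permutation tests used SciPy 1.17.1, DESeq2 1.42.0 was an alternative, and figures used matplotlib 3.10.9. Pooled ratios sum reads and denominators over the libraries of a stage. Every member of the rule was named. Of each marker list at most 2 members were named, and 3 of the muscle-linked list, those with the most reads, besides members past the test. The neural list was also named in full, after its values were seen. The members, lists and tests were chosen with earlier results of these data known. Replicate numbers were tried as a term. Each library was left out in turn with the 69 tested microRNAs kept where they had reads, which assumes that the lone library of that stage varied as the other stages did.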

Additional observations from a re-analysis of the deposited data

How the results depend on the processing

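miR-206-3p was called between 24 and 6 hpf with library size only (log2 difference 8.31), miR-430 removed (7.95) and the authors' library totals (8.46), 1 muscle microRNA in each, against 0 with TMM and 0 to 1 with a library left out. In the other comparisons 0 were called in each setting run. miR-1 turned from -1.06 to 0.10 (library size only) and 0.14 (authors' totals). The median of all 69 moved in the same direction, from -0.36 to 0.74 and 0.88, and why the scalings differ was not tested. Calls over all microRNAs between 24 and 6 hpf numbered 12, and 19 with DESeq2, 5 with no filter, 19 with the authors' totals, 4 with the robust fit and 0 to 28 with a library left out (4 and 0 without 6 hpf replicates 1 and 2, 28 and 24 without those of 11 hpf, 2 and 1 without those of 24 hpf). Between 11 and 6 hpf they numbered 4, and 1 without miR-430, 7 with DESeq2, 1 with the authors' totals and 0 to 3 with a library left out (0 without 6 hpf replicate 2, 2 each without 11 hpf replicate 1 and 24 hpf replicate 1). Between 24 and 11 hpf they numbered 0, and 8 with RLE, 3 with DESeq2, 1 with the stricter filter (a mean of 100 reads in a stage) and 3 with the authors' totals. The ratio of the summed muscle reads was 2.67 for 24 to 11 hpf and 1.52 outside the miR-430 family. For 24 to 6 hpf it was 5.39, with 1.84 outside that family, 2.34 with TMM library sizes and 3.87 to 6.92 with a library left out. The "at least" ratio of miR-206-3p, 24 to 6 hpf, was 7.83 outside the miR-430 family and 9.99 with TMM library sizes. Without 24 hpf replicate 2 no read of miR-499-5p was left. With no filter miR-499-5p was tested and did not pass (edgeR adjusted p = 0.515 for 24 against 6 hpf). Added after seeing the data were the authors' totals, the robust fit and the ratios with TMM library sizes.

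Over 69 microRNAs, the replicate differences correlated at 0.14 between 6 and 11 hpf, 0.06 between 6 and 24 hpf and -0.24 between 11 and 24 hpf. The replicate numbers were not taken as pairs for this reason. Whether same-numbered libraries shared a batch was not tested. With the replicate block, 4 microRNAs were called between 24 and 6 hpf, 3 between 11 and 6 hpf and 0 between 24 and 11 hpf, with 0 muscle microRNAs in each. Over the 6 libraries miR-1 had 92 reads, miR-206-3p 102 and miR-499-5p 22, which limits the precision of their values.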

Other observations

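Some microRNAs had reads in 1 library only. There were 13 such microRNAs in 24 hpf replicate 1 and 3 in 24 hpf replicate 2, which were miR-9-4-3p with 42 reads, miR-499-5p with 22 and miR-187 with 1. The brain microRNA miR-124-3p, chosen here after its values were seen, had 32 reads in 24 hpf replicate 1 and 0 elsewhere. In 24 hpf replicate 2, where miR-499-5p was read, miR-124-3p was thus at 0, while miR-9-4-3p, another brain microRNA, had its 42 reads there. Other members of the neural list went the other way from miR-9-4-3p. miR-9-5p had 18 reads in 24 hpf replicate 1 and 2 in replicate 2, miR-128-3p 24 and 1, and miR-153a-3p 8 and 0. miR-128-3-5p had 0 in both.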
